A study of Mus musculus with 24 samples.

Results

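The striated muscle genes described here were 37 genes, chosen by symbol from 45777 genes in the deposited table. They encode thin filament proteins and troponins (9 genes), titin, nebulin, myosin-binding and M-band proteins (6), Z-disc proteins with the intermediate filament protein desmin (7), excitation-contraction coupling proteins (6), energy enzymes (3) and proteins that respond to stretch or stress (6). Polyadenylated RNA was sequenced from 24 libraries of skin and dorsal root ganglia (DRG, in which the cell bodies of sensory neurons lie), in 4 groups of 6. The groups were LL37 model skin, control skin, LL37 model DRG and control DRG, all from female BALB/c mice aged 6 weeks with no genetic change named. Model mice had received LL37, the human cathelicidin peptide used to bring about rosacea-like inflammation, as intradermal injections of 40 µL at 320 µM, 2 times a day on 2 days. DRG were taken on day 4. Gabapentin was given by mouth from day 3, but the sources do not say to which animals, and no sample label names it, so model and control may also differ in this drug. The injection given to control animals and the day on which skin was taken are likewise not given, nor is it stated that each library came from its own animal. The p-values below therefore measure the spread between these samples, which may be technical. Total counts ranged from 46549562 to 63531350 in model skin, 45238735 to 64547448 in control skin, 47801198 to 68396846 in model DRG and 52273676 to 63544026 in control DRG.

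In a sarcomere, the contractile unit of striated muscle, myosin pulls on actin filaments that are anchored at the Z-disc, while titin and the M-band hold the myosin filaments in register. Contraction starts when a voltage sensor in the surface membrane opens the ryanodine receptor, calcium leaves the sarcoplasmic reticulum and binds troponin C, and the troponin complex frees actin for myosin. Several of these proteins come in versions for fast fibres, slow fibres and heart, and forming or regenerating skeletal fibres use some of the cardiac and slow versions before the adult fast ones. Mouse skin lies on a sheet of skeletal muscle, the panniculus carnosus, and hair follicles and vessels hold smooth muscle. A DRG holds no striated muscle of its own but lies close to the muscles of the spine.

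Libraries differed in tissue makeup before any gene of the set is considered. Levels are in CPM, read counts scaled to library size with the trimmed mean of M-values (TMM). Epidermal keratins marked all skin libraries, with a summed level of 4 keratinocyte markers of 6532 to 17130 CPM in model skin and 9442 to 22380 CPM in control skin, and 7 sensory neuron markers marked all DRG libraries, at 6228 to 7804 CPM in model DRG and 6686 to 8816 CPM in control DRG. Skin control 2 stood apart: its 5 hair follicle markers summed to 1159 CPM against 31540 to 49630 CPM in the other control skin libraries, and its 6 adult muscle fibre markers to 6390 CPM against 1735 to 3663 CPM. Adult fibre markers were uneven in model skin too, at 672 to 6156 CPM. In these bulk samples, fewer cells of a type and less RNA per cell cannot be told apart.

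In model skin, 7 of the 37 genes rose (18.9%) and none fell, against 14.1% of 19526 genes tested that rose and 5.82% that fell. A gene is said to have risen or fallen where its p from edgeR's quasi-likelihood (QL) test, after Benjamini-Hochberg (BH) adjustment across the whole tissue, was under 0.05, which 19.9% of genes met. The genes that rose were the cardiac actin gene Actc1, the slow and cardiac troponin genes Tnnc1, Tnnt1, Tnnt2 and Tnni1, and the stretch-response genes Ankrd1 and Ankrd2. By role, 5 of 9 thin filament and troponin genes and 2 of 6 stretch-response genes rose, and none of the 22 genes of the other roles did. For 6 of 37 genes (16.2%, against 7.25% of all genes tested) the model libraries were all higher than the control libraries, and for none (against 1.44%) all lower. Ankrd2 was the risen gene whose groups overlapped. At an unadjusted p under 0.05 there were 7 of 37 genes (18.9%), against 35.4% of all genes tested. The median log2 fold change over the 37 genes was -0.34, against -0.02 over all genes tested.

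**Figure D1:**
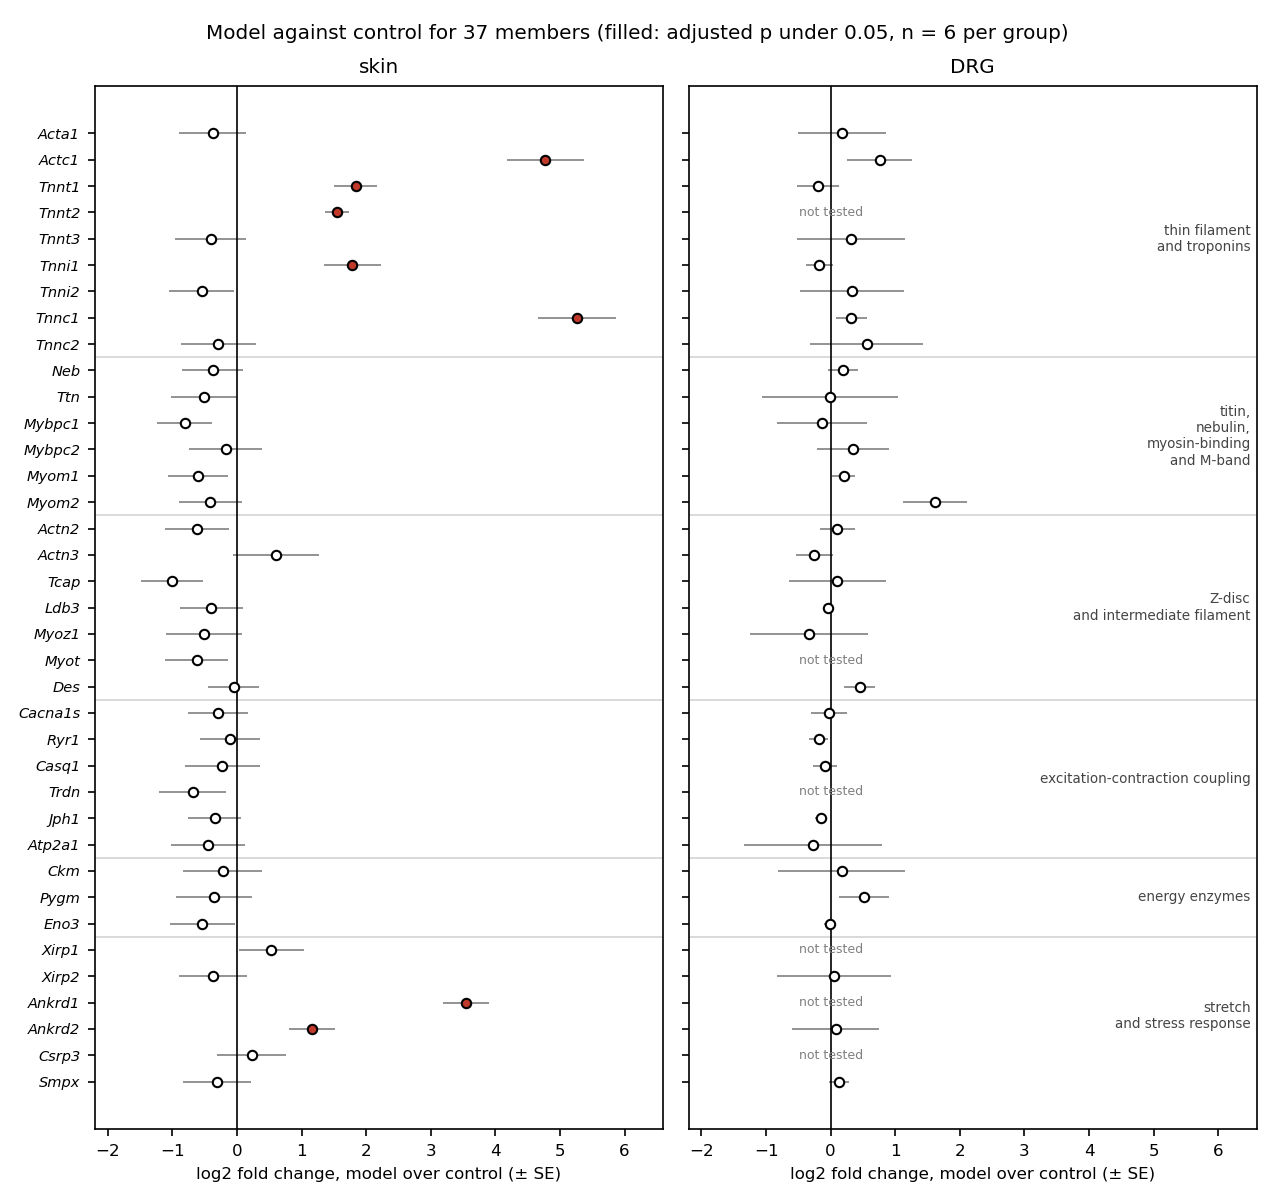
Log2 fold change of model over control for the 37 genes (rows, grouped by role) in skin (left) and DRG (right), with bars for the standard error from edgeR and filled points for a BH-adjusted p under 0.05, n = 6 libraries per group. The filled points, 7 in skin and none in DRG, lie among the thin filament, troponin and stretch-response genes, and 27 of the 30 other skin points lie left of 0.

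The promoters of the 3 genes with the largest rises among the 37 are printed with that of Acta1, the adult skeletal actin gene that did not pass, to show that sequence motifs known from muscle genes stand in both kinds. Each line gives 150 bases upstream of the gene's start, 5′ to 3′ on the gene's strand, from RefSeq (GRCm38.p6): Actc1 at chr2:114052876-114053025 on the minus strand, Tnnc1 at chr14:31208162-31208311 on the plus strand, Ankrd1 at chr19:36119845-36119994 on the minus strand and Acta1 at chr8:123894776-123894925 on the minus strand. Capitals mark matches, in either orientation, to the E-box (CANNTG, bound by myogenic factors such as MyoD and myogenin), the core of the M-CAT motif (CATTCC, bound by TEAD factors), the CArG box (bound by serum response factor) and the MEF2 site. No E-box lay over another marked motif in these windows.
Actc1: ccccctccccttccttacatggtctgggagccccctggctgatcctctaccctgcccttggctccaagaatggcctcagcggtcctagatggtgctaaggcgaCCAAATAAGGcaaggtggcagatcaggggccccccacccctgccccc
Tnnc1: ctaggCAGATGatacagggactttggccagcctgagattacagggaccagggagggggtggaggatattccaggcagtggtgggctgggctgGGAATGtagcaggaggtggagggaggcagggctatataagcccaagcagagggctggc
Ankrd1: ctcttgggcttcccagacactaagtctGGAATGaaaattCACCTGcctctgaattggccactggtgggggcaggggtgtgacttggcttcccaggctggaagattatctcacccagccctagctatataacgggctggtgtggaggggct
Acta1: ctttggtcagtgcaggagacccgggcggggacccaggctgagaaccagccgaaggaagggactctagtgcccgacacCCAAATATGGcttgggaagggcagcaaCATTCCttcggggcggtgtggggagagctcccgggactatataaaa
A CArG box began 47 bases upstream of Actc1 and 73 bases upstream of Acta1, and an M-CAT core began 58 bases upstream of Tnnc1, 123 bases upstream of Ankrd1 and 46 bases upstream of Acta1. Over the 250 bases upstream of every start in the table, a CArG box was found in 16.7% of 30 promoters of 26 genes of the set and in 1.5% of 32851 promoters in all, an M-CAT core in 23.3% and 12.6%, a MEF2 site in 6.7% and 2.9%, and an E-box in 83.3% and 66.2%. Among the 9 promoters of the 7 genes that rose, 1 held a CArG box, 3 an M-CAT core, 8 an E-box and none a MEF2 site, and among the 21 promoters of the other 19 genes these numbers were 4, 4, 17 and 2. A match describes the letters of the window and does not say that a factor was bound.

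Actin is the backbone of the thin filament. Actc1 (gene 11464, chromosome 2, 114047282 to 114052875), the cardiac alpha-actin gene that forming skeletal fibres also use, was at 9.89, 14.9 and 30.7 CPM (lowest, median and highest library) in model skin and at 0.173, 0.418 and 1.87 CPM in control skin. All 6 model libraries lay above all 6 control libraries, the log2 fold change was 4.78 ± 0.59 (SE), or 27.4-fold, and the gene rose (edgeR QL, BH-adjusted p = 0.000553). Acta1, the skeletal alpha-actin gene and the most abundant of the 37 genes in skin by median TPM (the authors' level scaled to transcript length and library size), was at 338, 950.4 and 2697 CPM in model skin and 802, 1252 and 3092 CPM in control skin. Its groups overlapped, with a log2 fold change of -0.38 ± 0.52 (edgeR QL, BH-adjusted p = 0.64).

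Troponin C binds calcium, and its gene for slow muscle and heart had the largest rise among the 37 genes. Tnnc1 (gene 21924, chromosome 14, 31208312 to 31211729) was at 1.57, 3.56 and 5.78 CPM in model skin and at 0, 0.101 and 0.199 CPM in control skin, where skin control 1 and 2 held no count and the other 4 libraries 6 to 10 counts. It rose with a log2 fold change of 5.27 ± 0.60, or 38.5-fold (edgeR QL, BH-adjusted p = 0.000548), a size that rests on 30 control counts in all. Tnnc2, the fast skeletal troponin C gene, was at 37.3, 110 and 460 CPM in model skin and 110, 155 and 470 CPM in control skin, with a log2 fold change of -0.29 ± 0.58. Of the bases in its annotated exons 74.0% also belong to exons of Ube2c on the opposite strand, and no source used here gives the strand setting of the counting, so its reads cannot be told apart from those of Ube2c.

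Troponin T ties the complex to tropomyosin, and 2 of its 3 genes rose. Tnnt2, the cardiac form (gene 21956, chromosome 1, 135836315 to 135852268), was at 9.71, 11.8 and 18.7 CPM in model skin and 3.19, 4.67 and 5.44 CPM in control skin, without overlap. Its log2 fold change was 1.55 ± 0.18, or 2.92-fold (edgeR QL, BH-adjusted p = 0.000548), and its control libraries were the most even of the 3 troponin T genes. Tnnt1, the slow skeletal form (gene 21955, chromosome 7, 4504569 to 4515975), was at 5.28, 6.09 and 11 CPM in model skin and 0.718, 1.76 and 3.57 CPM in control skin, without overlap, and rose 3.58-fold (log2 1.84 ± 0.33, edgeR QL, BH-adjusted p = 0.00271). Tnnt3, the fast skeletal form, was at 98.2, 248 and 992 CPM in model skin and 273, 399 and 1058 CPM in control skin, with a log2 fold change of -0.41 ± 0.55.

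Troponin I holds actin in the off state. Tnni1, the slow form (gene 21952, chromosome 1, 135783033 to 135810989), was at 4.30, 7.61 and 11.2 CPM in model skin and 0.765, 1.81 and 4.27 CPM in control skin. The lowest model library lay just above the highest control library, and the gene rose 3.45-fold (log2 1.79 ± 0.44, edgeR QL, BH-adjusted p = 0.015). The order of control libraries differed between slow genes, since skin control 6 was highest for Tnni1 and lowest for Tnnt1. Tnni2, the fast form, was at 51.4, 126 and 393 CPM in model skin and 137, 202 and 542 CPM in control skin, with a log2 fold change of -0.55 ± 0.51.

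Among proteins that respond to stretch or stress, Ankrd1 (gene 107765, chromosome 19, 36111965 to 36119844), which encodes the cardiac ankyrin repeat protein of the titin N2A region, was at 5.06, 9.25 and 21.4 CPM in model skin and 0.639, 0.981 and 1.21 CPM in control skin. The control libraries were even and lay below all model libraries, and the gene rose 11.7-fold (log2 3.55 ± 0.36, edgeR QL, BH-adjusted p = 0.000548). Ankrd2 (gene 56642, chromosome 19, 42035917 to 42045111), a relative of Ankrd1 from skeletal muscle, was at 2.70, 6.35 and 14.4 CPM in model skin and 2.28, 3.23 and 4.14 CPM in control skin. It rose 2.25-fold with overlap (log2 1.17 ± 0.36, edgeR QL, BH-adjusted p = 0.0375), a call lost when any control library but skin control 2, or skin model 4 or 6, was left out (adjusted p up to 0.0773). Xirp1, which encodes an actin-binding protein of cell junctions and damaged fibres, was at 3.86, 12.3 and 38.1 CPM in model skin and 8.06, 10.7 and 18 CPM in control skin (log2 0.53 ± 0.50). Csrp3, the muscle LIM protein gene, was at 4.37, 23.3 and 40.2 CPM in model skin and 10.8, 15.1 and 36.5 CPM in control skin (log2 0.23 ± 0.53). The log2 fold changes of Xirp2 and of Smpx, which encodes a small muscle protein, were -0.37 ± 0.52 and -0.31 ± 0.53. These 4 genes did not pass, at BH-adjusted p from 0.483 to 0.791 in edgeR's QL test.

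**Figure D2:**
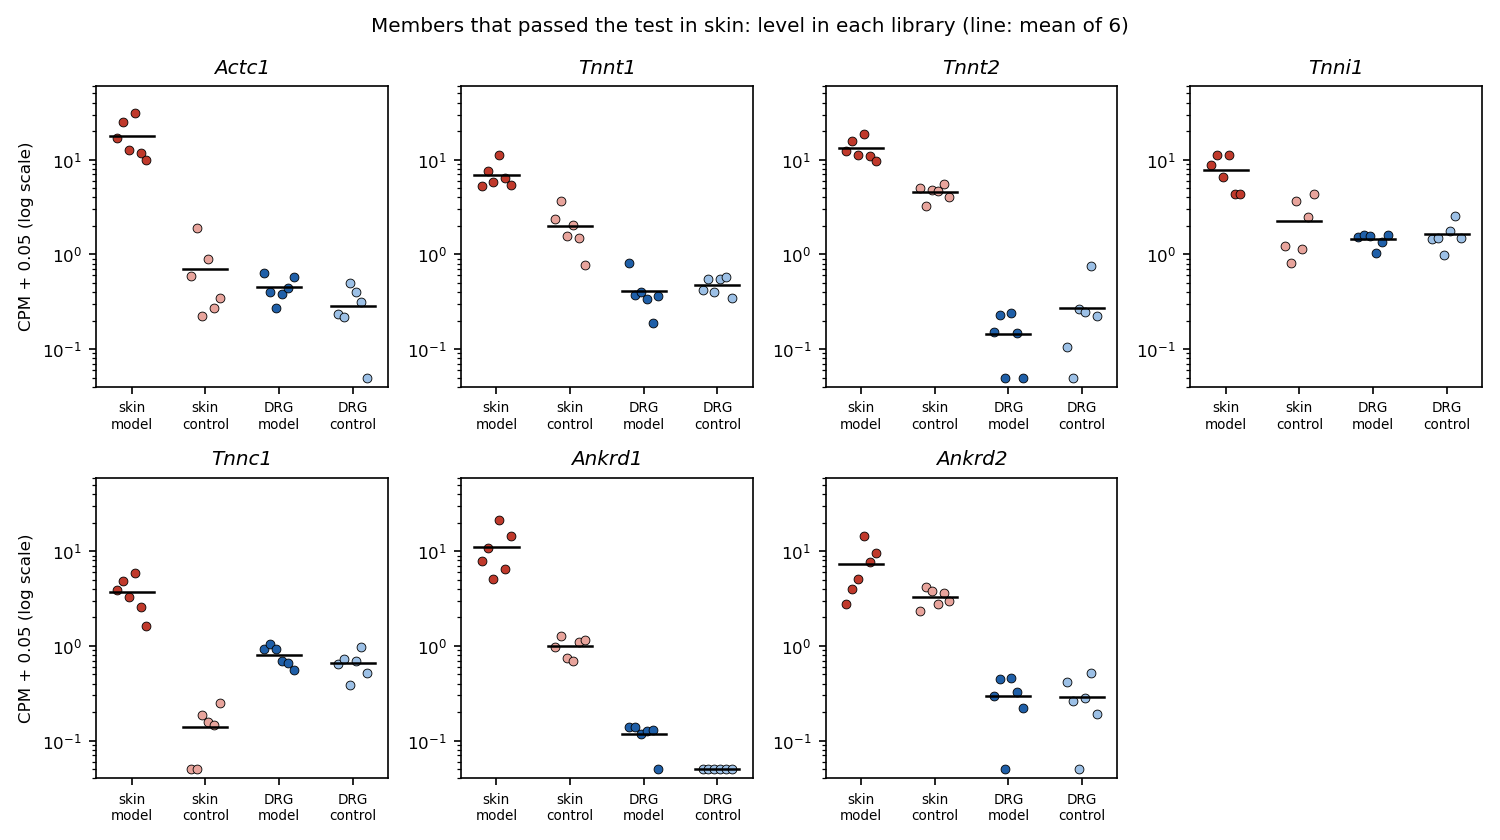
Level of each of the 7 genes that rose in skin, in CPM with 0.05 added, on a log axis, with 1 point per library, the groups side by side (skin model, skin control, DRG model, DRG control) and a line at the mean of 6 libraries. Model skin lies above control skin without overlap for all but Ankrd2, and the DRG groups overlap for all 7, with Ankrd1 counts in 5 model DRG libraries and in no control DRG library.

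The genes of the other roles did not pass in skin, and their libraries were spread over a wide range. None of the 6 excitation-contraction genes passed, with log2 fold changes from -0.69 to -0.11. Ryr1, the calcium release channel, was at 52.3, 105 and 315 CPM in model skin and 86, 131 and 311 CPM in control skin (log2 -0.11 ± 0.47). Atp2a1, the calcium pump of fast fibres, was at 170, 474 and 1864 CPM in model skin and 548, 919 and 2038 CPM in control skin (log2 -0.44 ± 0.57). Cacna1s, the voltage sensor, Casq1, the calcium-binding protein of the reticulum, Trdn, which links it to the release channel, and Jph1, which holds the membranes together, had log2 fold changes of -0.29 ± 0.47, -0.22 ± 0.58, -0.69 ± 0.51 and -0.34 ± 0.41.

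None of the 6 genes for titin, nebulin, myosin-binding and M-band proteins passed, with log2 fold changes from -0.81 for Mybpc1 to -0.17 for Mybpc2, the slow and fast forms of myosin-binding protein C. Ttn, for titin, was at 117, 291 and 850 CPM in model skin and 363, 491 and 1176 CPM in control skin (log2 -0.51 ± 0.51), and Neb, Myom1 and Myom2, for nebulin and the M-band myomesins, had log2 fold changes of -0.38, -0.60 and -0.41. Among the 7 Z-disc and intermediate filament genes, Tcap, which caps titin at the Z-disc, was at 12.9, 34.8 and 90.4 CPM in model skin and 48.2, 93.6 and 179 CPM in control skin, the lowest ratio of model to control among the 37 genes (0.499, edgeR QL, BH-adjusted p = 0.16). Actn3, the alpha-actinin of fast fibres, had the highest log2 fold change among the 30 genes that did not pass, 0.60 ± 0.67, with 569 CPM in skin model 4 and 37.5 to 153 CPM in the remaining 5, while control skin had 42.4 to 205 CPM. The log2 fold change of Actn2, the other muscle alpha-actinin, was -0.62, and those of Ldb3, Myoz1, Myot and Des, for the Z-disc proteins cypher, calsarcin-2 and myotilin and for desmin, were -0.40, -0.52, -0.62 and -0.05. Of the energy enzymes, Ckm, muscle creatine kinase, was at 103, 347 and 1718 CPM in model skin and 328, 577 and 1321 CPM in control skin (log2 -0.22 ± 0.61), and Pygm, glycogen phosphorylase, and Eno3, the muscle enolase, had log2 fold changes of -0.35 and -0.53.

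Of the 30 genes that did not pass in skin, 27 had log2 fold changes below 0 and 3 above 0, with a median of -0.38. Within a group these genes went up and down together by library. Skin model 4 was the highest model library for 19 of the 30 and skin model 5 for the other 11, while skin model 2 was the lowest for 25 and skin model 1 for 5. In control skin, skin control 2 was the highest for 29 of the 30 and skin control 6 the lowest for 27. The highest library exceeded the lowest by a median of 7.39 times in model skin and 3.72 times in control skin. For the 7 genes that rose, the model libraries differed by a median of 3.11 times and the control libraries, over the 6 genes with no library at 0, by 3.44 times, and skin model 4 was the highest for all 7. Without skin model 4, 6 of the 7 passed, and without skin control 2 all 7 did.

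The summed level of 5 adult myosin genes outside the set (Myh1, Myh2, Myh4, Mylpf and Myl1) ranged from 655 to 6114 CPM in model skin and from 1683 to 6193 CPM in control skin. Skin model 2, at 655 CPM of this sum, had 103 CPM of Ckm, and skin model 4, at 6114 CPM, had 1718 CPM of Ckm. In model skin, Actc1 did not span such a range. Skin model 2 had 24.7 CPM, skin model 4 had 30.7 CPM and the other 4 model libraries had 9.89 to 17.1 CPM. In control skin Actc1 ranged from 0.173 to 1.87 CPM and was highest in skin control 2, which also had the highest sum, at 6193 CPM. With the log2 of this sum as a covariate, the 7 genes passed with log2 fold changes of 5.23 for Tnnc1, 5.13 for Actc1, 3.63 for Ankrd1, 2.09 for Tnnt1, 1.73 for Tnni1, 1.54 for Tnnt2 and 1.27 for Ankrd2. A further 3 passed, Actn3 as higher (0.76) and Tcap and Tnni2 as lower (-0.71 and -0.23, edgeR QL, BH-adjusted p = 0.0203, 0.0109 and 0.0477). The count was then 10 of 37 genes, while over all genes tested it was 4888 with the covariate and 3892 without it, and the covariate itself is a sum of muscle RNA.

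**Figure D3:**
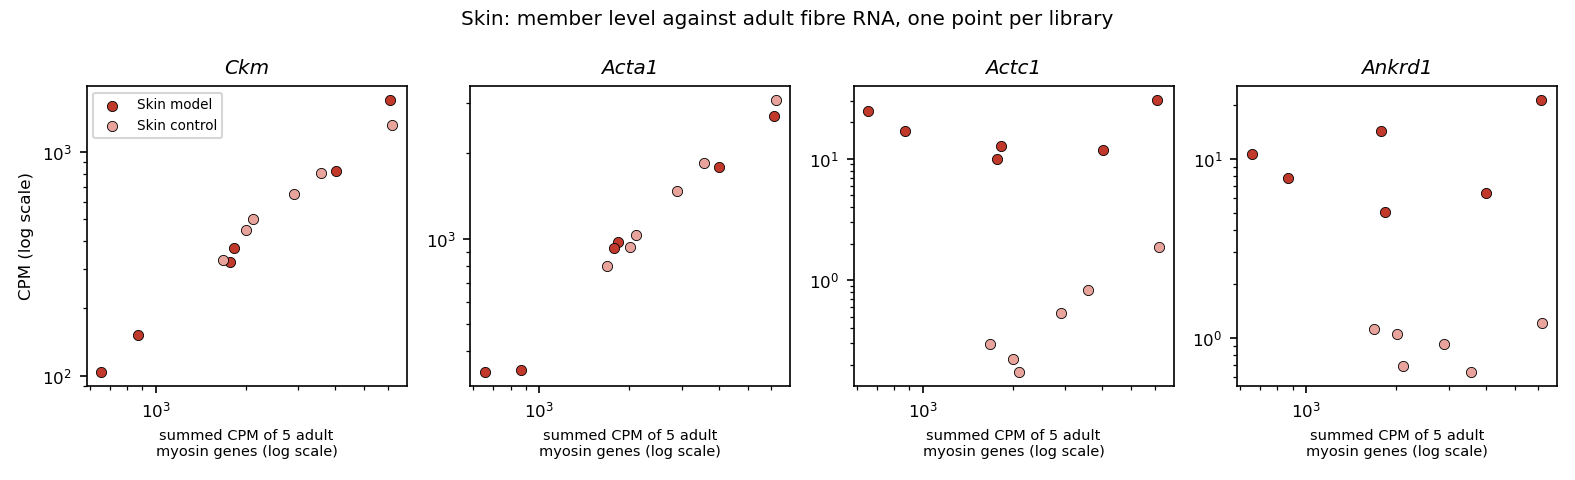
Level in CPM of Ckm, Acta1, Actc1 and Ankrd1 (y axes) against the summed CPM of 5 adult myosin genes (x axis), both on log axes, with 1 point per skin library of model and control. Ckm and Acta1 are higher where the sum is higher in either group. In control skin Actc1 is also highest at the highest sum, and the model points of Actc1 and Ankrd1 all lie above the control points.

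Because related genes replace each other in the sarcomere, their ratio within a library was compared as a quantity that does not move with library size, on log2 of TPM with 0.1 added, with an exact two-sided permutation test and BH adjustment over 7 ratios in 2 tissues (smallest possible p = 0.00216). In skin, the cardiac or slow gene gained on the adult skeletal or fast gene in all 5 actin and troponin ratios. The pairs were chosen with earlier results of these data known. All 5 numerators had already risen in the same libraries, so the direction of these ratios is not independent of those calls. The log2 ratio of Actc1 to Acta1 averaged -5.75 ± 1.38 in model skin and -11.27 ± 0.50 in control skin (SD, n = 6, exact permutation p = 0.00216, adjusted p = 0.00758), and that of Tnnc1 to Tnnc2 averaged -5.20 ± 1.48 in model skin and -11.01 ± 1.75 in control skin, with the same p. Since Tnnc1 was at 0 in skin control 1 and 2, the size of that difference (5.81) was set in part by the added value and was 3.75 with 1 TPM and 7.14 with 0.01 TPM added, and Tnnc2 shares exon bases with Ube2c. Differences of 2.77 for Tnnt1 to Tnnt3 and 2.22 for Tnnt2 to Tnnt3 also came without overlap (exact permutation test, adjusted p = 0.00758 for each). For Tnni1 to Tnni2 the difference was 2.77 with overlap (exact permutation test, adjusted p = 0.0404), and the ratio passed in 4 of 12 tests that left out a library (lost without skin control 1, 2, 4 or 5, or model 1, 2, 3 or 6, adjusted p up to 0.0727).

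The alpha-actinin ratio moved the other way: Actn2 to Actn3 averaged -0.56 ± 0.86 in model skin and 0.34 ± 0.37 in control skin (SD, n = 6, exact permutation test, adjusted p = 0.0404), and it passed in 3 of 12 tests that left out a library (lost without skin control 2, 3, 4, 5 or 6, or model 1, 2, 3 or 4, adjusted p up to 0.116). The ratio of slow to fast myosin-binding protein C, Mybpc1 to Mybpc2, did not pass, at -0.18 ± 0.67 in model skin and 0.16 ± 0.35 in control skin (exact permutation test, adjusted p = 0.373). Although they gained, the cardiac and slow genes stayed a small part of their families. As a share of the summed TPM of the family, Actc1 made up 0.662 to 6.92% of sarcomeric actin in model skin and 0.0168 to 0.0612% in control skin, and Tnnc1 made up 0.956 to 11.1% of troponin C in model skin and 0 to 0.157% in control skin. Tnnt1 and Tnnt2 made up 0.978 to 6.16% and 1.51 to 11.7% of troponin T in model skin and 0.208 to 0.429% and 0.254 to 1.43% in control skin. Tnni1 made up 0.913 to 12.5% of troponin I in model skin and 0.0845 to 1.87% in control skin. Annotated transcripts of these actin and troponin pairs share no stretch of 50 bases, and none of the 7 genes that rose shares exon bases with another annotated gene.

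**Figure D4:**
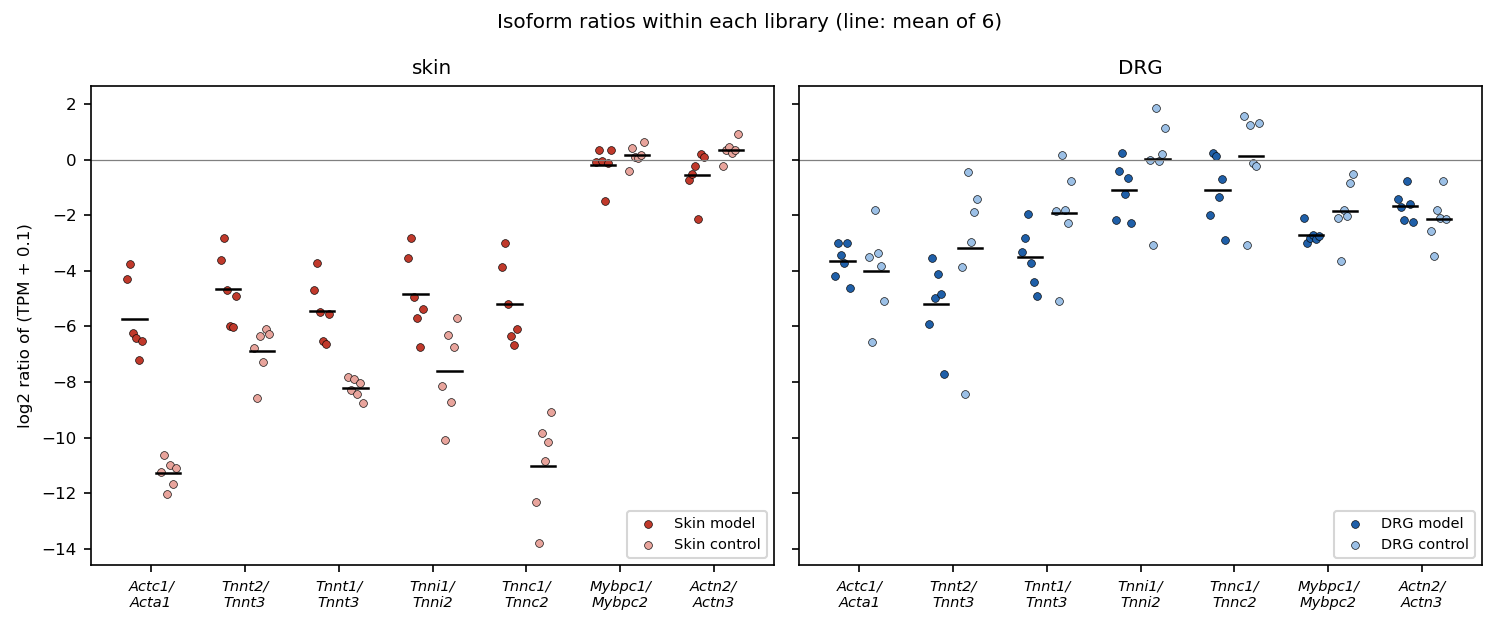
Log2 ratio of TPM (with 0.1 added) of 7 gene pairs in each library, model left of control for each pair, in skin (left panel) and DRG (right panel), with a line at the mean of 6 libraries. In skin the Actc1, Tnnt2, Tnnt1 and Tnnc1 ratios of model libraries lie above all control libraries, and in DRG all 7 pairs overlap.

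The counts for partners of these genes are to be read against the 14.1% of all genes tested that rose in skin and the 5.82% that fell. Among 17 excitation-contraction partners 2 rose: Casq2, the slow and cardiac calsequestrin, at 14, 17.1 and 24.5 CPM in model skin and 7.09, 8.79 and 11.5 CPM in control skin without overlap (2.04-fold, edgeR QL, BH-adjusted p = 0.000814), and Asph, for junctin and aspartyl hydroxylase (1.40-fold, BH-adjusted p = 0.0376). Among 37 Z-disc, M-band and thin filament partners 2 rose, Mybph, myosin-binding protein H, 5.54-fold with 28.5 ± 23.8 CPM in model skin and 5.16 ± 3.76 CPM in control skin (SD, n = 6, edgeR QL, BH-adjusted p = 0.00742), and Tpm3, slow tropomyosin with non-muscle forms, 1.40-fold (BH-adjusted p = 0.00871). In the same list 2 fell, Pdlim7, a Z-disc linker also made outside muscle, and Fbxo32, the ubiquitin ligase atrogin-1, with log2 fold changes of -0.40 and -0.41 (edgeR QL, BH-adjusted p = 0.0446 and 0.0498). The medians of these lists were -0.08 and -0.17.

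Of 16 other muscle energy enzymes, Gpd1 rose, at 108, 316 and 1528 CPM in model skin and 81.5, 106 and 145 CPM in control skin (4.67-fold, edgeR QL, BH-adjusted p = 0.0116). Gpd1 is also a fat cell enzyme, and it was highest in skin model 1, the library with the highest sum of adipocyte markers. The part of fat cells in its rise was not tested. Of 12 skeletal myosin chain genes 9 were tested and 2 rose, embryonic Myh3 and Myl4, the atrial and embryonic light chain. The slow and cardiac chains Myh7, Myl2 and Myl3 also stand in this list. Each of them either did not pass or was not tested. Of those that did not pass, named here after their values were seen, the adult chains Myh1, Myh2 and Myh4 had log2 fold changes of -0.96, -0.64 and 0.84 (edgeR QL, BH-adjusted p = 0.124, 0.343 and 0.43), and Myh8, the perinatal chain, 0.12. Of 12 myogenic regulators and fusion genes, whose median log2 fold change was 2.22, 10 rose, among them Myog, myogenin, at 7.67, 16.2 and 37.8 CPM in model skin and 0.419, 0.703 and 2.74 CPM in control skin (18.4-fold, edgeR QL, BH-adjusted p = 0.000553). Chrng, the fetal acetylcholine receptor subunit, had no counts in control skin and 2.08 to 7.30 CPM in model skin. Mymk and Mymx, whose products fuse myoblasts, rose 150.4-fold and 33.6-fold, Myod1, the factor that commits cells to muscle, 2.81 on the log2 scale, and Chrna1, the receptor's alpha subunit, 5.44-fold. In edgeR's QL test their BH-adjusted p lay between 0.000548 and 0.00201. For Mymk the fold rests on control libraries of which most held no count. Skin model 4 was the highest library for all 10.

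Markers of other cell types moved with the groups, and their part in the results was not tested. All 7 satellite cell and myoblast markers rose, and their sum was 18.9 to 77.3 CPM in model skin and 2.01 to 8.35 CPM in control skin, and all 7 also stand in the regulator list. None of the 6 adult fibre markers passed, nor did any of 8 smooth muscle markers, whose sum was 384 to 459 CPM in model skin and 413 to 587 CPM in control skin. Of the heart markers, Nppa was at 0 in all skin libraries and Myl7 was at 0 in control skin and at most at 0.0669 CPM in model skin. The sum of the 6 heart markers was 4.08 to 9.32 CPM in model skin and 2.78 to 7.70 CPM in control skin, with Ryr2 the one that rose. All 6 adipocyte markers rose (sum 1240 to 5911 CPM in model skin and 654 to 1074 CPM in control skin), as did all 5 macrophage markers (325 to 1012 CPM in model skin and 106 to 264 CPM in control skin) and 2 of 5 fibroblast markers. None of the 4 keratinocyte, 5 hair follicle, 5 Schwann cell or 3 tested sensory neuron markers passed in skin, although hair follicle markers summed to 1768 to 25020 CPM in model skin, below every control library but skin control 2.

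In DRG, 31 of the 37 genes were abundant enough to test and none passed, against 0.0974% of 19509 genes tested that passed. For none were the model libraries all higher or all lower than the control libraries, which held for 0.379% and 0.149% of genes tested. The untested genes were Tnnt2, Myot, Xirp1, Ankrd1, Csrp3 and Trdn. DESeq2 also called none of the 37. At an unadjusted p under 0.05 in edgeR, which 9.34% of genes tested met, there was 1, Myom2, which encodes the M-band protein M-protein (gene 17930, chromosome 8, 15057653 to 15133420). It was at 4.22, 7.26 and 23.7 CPM in model DRG and 1.08, 4.14 and 4.49 CPM in control DRG, with overlap, DRG model 4 the highest, and a log2 fold change of 1.61 ± 0.50 (edgeR QL, BH-adjusted p = 0.441). In skin its log2 fold change was -0.41. The median log2 fold change of the 31 genes was 0.10, against -0.01 over all genes tested.

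The genes that rose in skin were low in DRG. Actc1 was at 0.219, 0.373 and 0.586 CPM in model DRG and 0, 0.226 and 0.451 CPM in control DRG (log2 0.76 ± 0.50, edgeR QL, BH-adjusted p = 0.651). Tnnc1 was at 0.506, 0.757 and 1 CPM in model DRG and 0.334, 0.614 and 0.915 CPM in control DRG (log2 0.32 ± 0.24), with a control mean of 0.09 CPM in skin and 0.605 CPM in DRG. Tnni1 and Tnnt1 had log2 fold changes of -0.17 ± 0.21 and -0.19 ± 0.32. Ankrd1 had 4 to 6 counts in 5 of the 6 model libraries and 0 in the other, against 0 counts in all 6 control libraries, which allow up to 0.00864 CPM over the group from 3 counts. The main fit did not test this, for lack of counts. DESeq2 and the fits with no filter or all 24 libraries tested all 37 genes in DRG and called none.

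In DRG the levels of several genes of the set depended on the library. Ckm was at 1.18, 3.16 and 10.8 CPM in model DRG and 0.251, 1.47 and 19.4 CPM in control DRG, a 77.6-fold range over the 12 libraries. The ranges of Ttn, Atp2a1 and Tnni2 were 124-fold, 110-fold and 54.9-fold, while that of Actn3, the alpha-actinin of fast fibres, was 4.09-fold. DRG control 2 was the highest control library for 20 of the 30 genes that did not pass in skin. In model DRG the highest library for these genes was DRG model 6 for 12, DRG model 1 for 9 and DRG model 4 for 8. The 6 adult fibre markers summed to 3.60 to 33.6 CPM in model DRG and 1.14 to 57.6 CPM in control DRG, with DRG control 2 at 57.6 CPM. Other genes of the set were even: over the 12 DRG libraries the range was 1.23-fold for Ldb3, 1.36-fold for Jph1, 1.42-fold for Eno3, 1.67-fold for Smpx and 1.93-fold for Ryr1. Eno3 was the gene of the set with the highest median TPM in DRG, at 12.2 TPM in model DRG and 12.2 TPM in control DRG, followed by Ldb3 at 8.78 TPM in model DRG and 8.82 TPM in control DRG. Myod1 and Myog were at 0 in all DRG libraries.

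**Figure D5:**
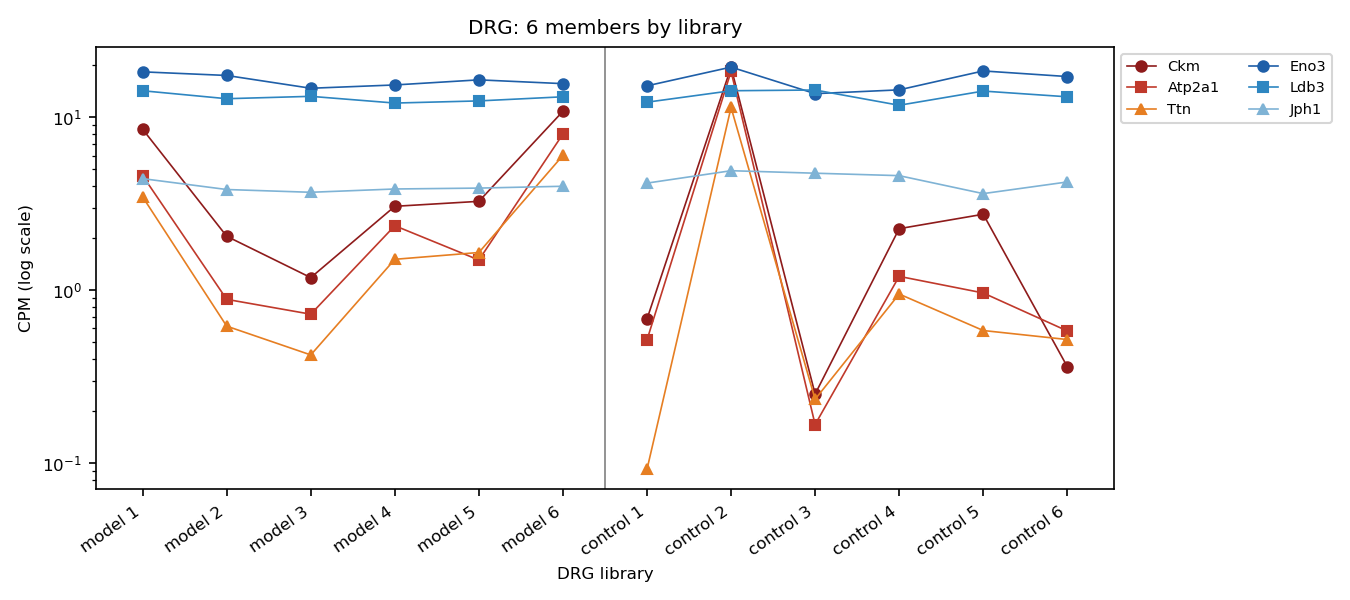
Level in CPM (log axis) of 6 genes in each DRG library, model libraries left of the line and control libraries right of it. Ckm, Atp2a1 and Ttn vary with the library and peak together in DRG control 2, while Eno3, Ldb3 and Jph1 keep nearly 1 level in all 12 libraries.

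None of the 7 isoform ratios passed in DRG (exact permutation test, lowest adjusted p = 0.174). Leaving out DRG control 2 changed this to 5 ratios, all lower in model DRG: Tnnt2 to Tnnt3 by -3.08 on the log2 scale, Tnnt1 to Tnnt3 by -2.22, Tnnc1 to Tnnc2 by -1.85, Tnni1 to Tnni2 by -1.72 and Mybpc1 to Mybpc2 by -1.23 (exact permutation test, adjusted p from 0.0152 to 0.0331). In each of these ratios the denominator is the fast skeletal gene, which among control libraries was highest in DRG control 2. Neither the numerators nor the denominators passed in their own tests in DRG, where Tnnt2 was not tested, and without DRG control 2 again 0 genes of the set passed. No gene of the partner and marker lists passed in DRG.

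Whether the model effect differed between skin and DRG was tested as the skin change minus the DRG change over 31 genes of the set and 17251 genes in all. The difference passed above 0 for 4 genes of the set, against 10.6% of all genes, and below 0 for none, against 6.43% (17.1% in either direction). It was 4.89 for Tnnc1, 3.98 for Actc1, 1.99 for Tnnt1 and 1.91 for Tnni1 on the log2 scale (edgeR QL, BH-adjusted p = 1.9e-05, 0.00144, 0.00636 and 0.012). For Ankrd2 it was 1.06 and did not pass (edgeR QL, BH-adjusted p = 0.348). For Myom2 it was -2.04, at an adjusted p of 0.0517 (edgeR QL) that ranged from 0.0162 to 0.12 over 29 alternatives and passed in 7 of them, among them DESeq2 and the fits without DRG model 1, 5 or 6 or skin model 4 or 5. Tnnt2 and Ankrd1 were too low in DRG to enter this test. Tnnt2 entered and passed, with the difference above 0, when no filter was used and when DRG control 1, 2 or 4 or DRG model 4, 5 or 6 was left out. With no filter all 37 genes entered, Ankrd1 among them, and Ankrd1 did not pass. For Acta1 and the fast genes Tnnt3, Tnni2 and Tnnc2 the difference lay between -0.92 and -0.58 without passing.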

How the data were processed

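Sequencing of polyadenylated RNA gave 24 libraries, grouped and numbered by their titles. Model libraries 1 to 6 are numbered 3 to 8 in the deposited table's column names, in the same order. Tools named in the submitters' processing notes are bcl2fastq 2.20.0, Trimmomatic, HISAT2 2.1.0 and StringTie 2.1.3b, and the build is GRCm38/mm10. No source used here says how reads were counted or with which strand setting. The authors deposited raw read counts for each gene, and these served for all edgeR and DESeq2 fits. TPM values, computed and deposited by the authors, served for comparisons between genes. FPKM values deposited by the authors were not used.

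The genes of the set, the other lists and the gene pairs were chosen with earlier results of these data known. Genes were named by a rule: every gene of the set, and of each other list up to 6 that passed, by smallest p. Myh1, Myh2, Myh4, Myh8, Nppa and Myl7 fall outside it and were named after their values were seen. Myh7, Myl2 and Myl3 also fall outside it and are named without values. Skin and DRG were fitted separately with edgeR 4.0.16 under R 4.3.3, using filterByExpr, TMM factors from 0.95 to 1.05 and the robust QL F test, with BH adjustment over all genes tested. The tissue difference was a contrast in 1 fit of 24 libraries. Ratios were tested over all 924 splits of 12 libraries. Promoter sequences and coordinates come from RefSeq (GRCm38.p6). The fits were tested on simulated counts. Among 60 pairs within groups no duplicated library was found (lowest chi-square per gene 9.13). The settings varied were the tool (DESeq2 1.42.0), the factors (upper-quartile or RLE), other filters, all 24 libraries in 1 fit, limma 3.58.1 on log2(TPM + 1), adult fibre RNA as a covariate, a replicate block, other pseudocounts, and each library left out in turn. Floors of 3 counts cover counting error only.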

Additional observations from a re-analysis of the deposited data

Results flagged for a closer look

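In groups of 6 libraries, 1 library lay far from the others for 31 of 148 combinations of gene and group. The rule used flags about 1 in 20 groups of independent, normally distributed values. These genes went up and down together by library, so that rate does not apply to them. DRG control 2 was the high one for 13 genes, with 20.7 CPM of Acta1, 19.4 of Ckm, 18.4 of Atp2a1, 15.2 of Tnnt3, 11.4 of Ttn, 6.42 of Tnni2, 6.37 of Neb, 5.97 of Mybpc2, 5.61 of Tnnc2, 2.36 of Myoz1, 2.32 of Xirp2, 1.37 of Trdn and 0.437 of Myot. The adult fibre markers summed to 57.6 CPM in that library and to 1.14 to 6.12 CPM in the other control DRG libraries, and their part in these values was not tested.

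DRG model 6 was high for Cacna1s (1.5 CPM), Xirp2 (1.35 CPM) and Myot (0.506 CPM) and low for Ankrd1 (0 CPM). DRG model 1 was high for Tnnt1 (0.762 CPM) and Xirp1 (0.586 CPM), and DRG model 4 for Actn2 (2.47 CPM). In control DRG, library 5 was high for Tnnt2 (0.71 CPM) and library 1 for Csrp3 (0.092 CPM).

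Skin control 2, the library with few hair follicle transcripts, was high for Ttn (1180 CPM), Tnnc2 (470 CPM), Ryr1 (311 CPM), Xirp2 (297 CPM), Casq1 (241 CPM), Myoz1 (151 CPM), Csrp3 (36.5 CPM) and Jph1 (33.3 CPM). Skin model 4 was high for Actn3 (569 CPM).

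The model effect differed between skin and DRG for 4 of 31 genes of the set in edgeR's test of the difference itself. Over all 17251 genes tested, 17.1% differed in either direction and 10.6% with the difference above 0. The skin change minus the DRG change, on the log2 scale, was 4.89 for Tnnc1, 3.98 for Actc1, 1.99 for Tnnt1 and 1.91 for Tnni1.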

How the results depend on the processing

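In skin, 7 genes of the set passed, against 5 to 10 over the alternatives and 6 to 7 with 1 library left out; none changed direction among those that passed. The 10 came with adult fibre RNA as a covariate. In DRG 0 passed in every alternative run. The tissue difference passed for 4 genes, for 4 to 6 with 1 library left out, and for 1 when at least 1 CPM in 6 libraries was required, a filter that left 21 genes of the set to test. Isoform ratios passed for 6 in skin (4 to 6 with 1 library left out) and for 0 in DRG (0 to 5, the 5 without DRG control 2; the cause was not tested). Over all genes in skin, 3892 passed, and 2564 to 6278 with 1 library left out.

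Model and control libraries of the same title number were compared by their deviations from the group means. The correlations of these deviations ranged from -0.544 to 0.301 in skin and from -0.508 to -0.0392 in DRG. No label says that such libraries share more than a number, and correlations over all genes cannot decide it. With a replicate block on this number, 5 genes passed in skin and 0 in DRG. The skin calls of Tnni1 and Ankrd2 were lost (edgeR QL, BH-adjusted p = 0.0777 and 0.114). For the tissue difference, the block instead joined skin and DRG libraries of the same group and number, and 4 genes passed. The deviations of these skin and DRG libraries correlated at -0.181 to 0.0738 in the model groups and -0.062 to 0.11 in the control groups. Of the skin isoform ratios 0 passed with the block of model and control libraries. There the smallest exact sign-flip p is 0.03125, and after adjustment over 14 tests the 7 skin ratios could not pass by themselves. The block therefore cannot decide whether these ratios differ. In the main DRG fit, 6 genes of the set were too low to test.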
